A study of Bos taurus with 6 samples.

Results

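Solute carriers are the membrane proteins that move small molecules and ions across cell membranes without using ATP directly, and they are numbered SLC by family. The genes described here are all solute carriers of a bovine blastocyst expression table, apart from the mitochondrial SLC25 family and the organic anion SLCO family. They were chosen by gene symbol: every symbol of the form SLC, family number, letter and member number, leaving out SLC25A, SLCO and the SLC9A3R scaffold genes. This gave 163 of the 9537 genes of the table, from 42 families. All 163 had passed whatever filter on low values shaped the table, whose lowest mean was 0.737 CPM. CPM are counts scaled to a common library size, and they are not corrected for transcript length. One of the 163, SLC7A6OS, is a gene on the opposite strand next to SLC7A6 and not a carrier. It is counted among the 163 and belongs to no substrate class.

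The study compared blastocysts, produced in vitro in the culture medium SOFaaci, that had high or low cryosurvival, which is survival after vitrification. Each group had 3 libraries made from total RNA, 6 in all. In the titles the high libraries also bear the code V and the low ones NV, codes left without an explanation. The labels give neither the number of embryos in a library, nor the time of RNA extraction relative to vitrification, nor the cultures from which the libraries of a group were taken. Any difference that the codes mark cannot be told apart from cryosurvival, and since replicates may be technical, a p-value here reflects the spread among the libraries at hand and no more. Breed, sex and day of culture are not given in the labels used here.

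The embryo lives on the fluid around it, and solute carriers set what it takes up. Glucose carriers and monocarboxylate carriers bring in the fuels, amino acid carriers bring in building blocks and signals for growth, and sodium, chloride and proton carriers of the trophectoderm, the outer epithelium, help move salt and water into the blastocoel cavity. Carriers of taurine, glycine, betaine and inositol let embryo cells adjust their volume without changing their salt content. Zinc, iron and copper carriers fill enzymes and stores, and the SLC35 family brings nucleotide sugars into the Golgi for glycosylation. Vitrification exposes cells to strong osmotic steps, which volume, ion and osmolyte carriers help cells to balance.

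The reads in the table numbered from 14651477 to 19467022 per library, and 1 read was worth 0.0499 to 0.0751 CPM. Low cryosurvival library 2 stood apart from the other 5. Its correlation with each of them, across genes on log2(CPM + 1), was from 0.952 to 0.971, against 0.979 to 0.995 for the 10 pairs among the others. It was also the shallowest library. Many results are therefore given with and without it, and a value given only with it may also rest on it. A fit without it compares low libraries 1 and 3 alone with the 3 high ones, and those low libraries correlated at 0.995. Calls in that fit therefore rest on fewer libraries and on a smaller spread within the low group. Markers of the trophectoderm, the inner cell mass and the hypoblast were present in every library. Of 13 listed cumulus and granulosa markers 5 were in the table, with summed levels of 303 to 405 CPM in the high and 285 to 356 CPM in the low libraries. HSD3B1 made up most of these sums, at 260, 305 and 357 CPM in the high and 310.5, 247 and 245 CPM in the low libraries. Each of the other measured markers had a mean of at most 19.6 CPM over the 6 libraries. One of 7 listed sperm markers, TNP1, was in the table, at up to 3.08 CPM. In these bulk samples fewer cells of a type and less RNA per cell cannot be told apart.

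Across the 163 genes the groups differed little as a whole. Of them 87 were higher and 76 lower in low cryosurvival embryos, so 53.4% were higher, against 50% of all genes. The median log2 difference, low minus high, was 0.03 against 0.00 over all genes, and it was -0.05 without low library 1. By limma on log2(CPM + 1), adjusted by Benjamini-Hochberg over the whole table at a threshold of 0.05, 0 of the 163 were called, and 0.0% of all genes were. At an unadjusted p below 0.05 there were 25 members, 15 higher and 10 lower in low. Over all genes 12.0% had such a p, 6.27% higher and 5.7% lower in low. The voom method on the recovered reads also called 0, with 28 at an unadjusted p below 0.05. The smallest limma adjusted p of a member was 0.145. SLC1A3 was the single member with an adjusted p below 0.05 by the authors' deposited table. In it 1.2% of all genes had one, and 0.283% had one and were lower in low.

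In 37 of the 163 the 3 libraries of one group all lay above the 3 of the other, 21 with low cryosurvival above and 16 with it below. This was 22.7% of the members, and 21.0% of all genes did the same, so the share of separated carriers was near that of the table. The 10 of each direction with the smallest limma p are plotted by library. Where a pair of means is given below, it is high against low cryosurvival (± SD, n = 3 each). The plotted carriers reach across every substrate class, and no class supplied more than 4 of the 20.

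**Figure D1:**
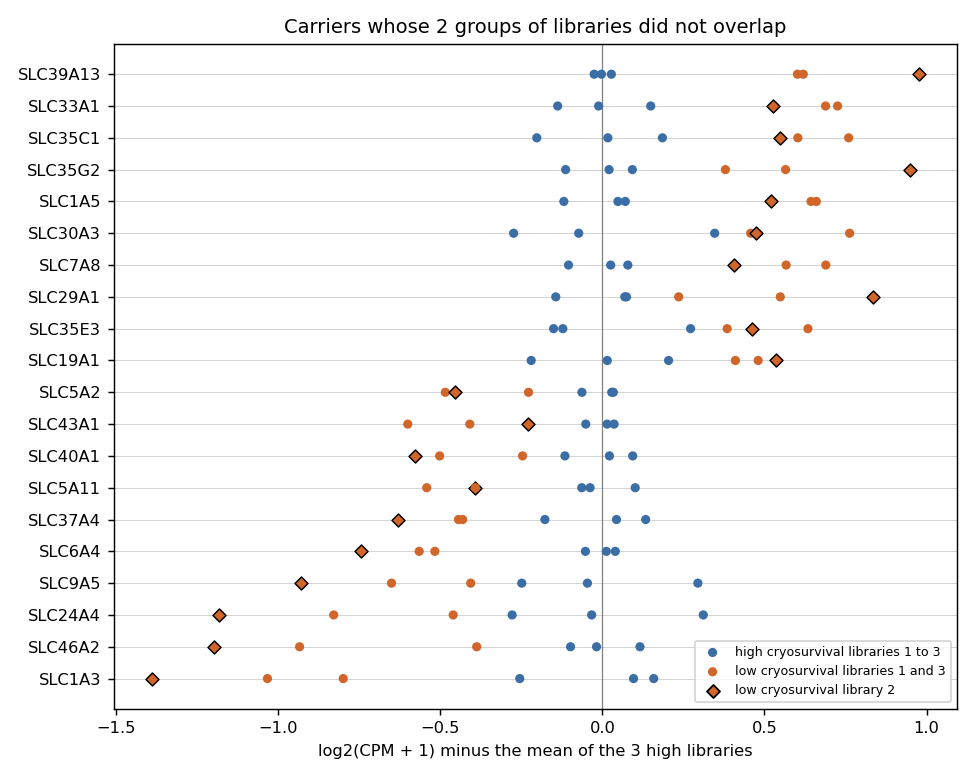
Level of 20 solute carriers in each of the 6 libraries, as log2(CPM + 1) minus the mean of the 3 high cryosurvival libraries (x axis, log2 units), with a row per gene. Points are single libraries, blue for high and orange for low, with a diamond for low library 2. In each row the orange points lie on one side of the blue ones, from SLC39A13 at a log2 difference of 0.73 to SLC1A3 at -1.07.

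Amino acid and peptide carriers made up the largest class, with 31 members, of which 16 were higher and 15 lower in low cryosurvival. Their median log2 difference was 0.05. SLC1A3, a sodium-driven glutamate and aspartate transporter, was at 45.2, 33.7 and 43.2 CPM in high libraries 1, 2 and 3 and at 22.8, 14.8 and 19.2 CPM in low libraries 1, 2 and 3. Every low library was below every high one, and low library 2 was the lowest. The means were 40.7 ± 6.15 against 18.9 ± 3.99 CPM (SD, n = 3 each), a high over low ratio of 2.15. The limma log2 difference was -1.07 (SE 0.20, adjusted p = 0.145). SLC1A3 was the 1 member called in the authors' deposited table, with a log2 low over high of -1.10 and an adjusted p of 0.002. Without low library 2 the limma difference of SLC1A3 was -0.92 (adjusted p = 0.0211).

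The other members of the family had higher or overlapping values. SLC1A5, an exchanger of glutamine and other neutral amino acids, was at 80.3, 79.1 and 70.3 CPM in the high and 120.0, 110.0 and 121 CPM in the low libraries. All low libraries were above all high ones, with a low over high ratio of 1.53 and a limma log2 difference of 0.61 (SE 0.12, adjusted p = 0.164). SLC1A1, a glutamate and cysteine carrier, was at 397, 428 and 366 CPM with high and at 445, 122 and 431 CPM with low cryosurvival, so that low library 2 alone was far below the other 5. Its log2 difference was -0.47, and 0.14 when that library was left out. SLC1A4 was at 33.7 ± 5.26 against 40.1 ± 14.5 CPM, with overlapping libraries.

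The SLC7 family and its partner are known for large neutral and cationic amino acids. SLC7A8, a light chain that works bound to the heavy chain SLC3A2, was at 151, 171 and 165 CPM in the high and 262, 215 and 240.5 CPM in the low libraries. The groups were apart, at a low over high ratio of 1.47 and a limma log2 difference of 0.55 (SE 0.13, adjusted p = 0.192). SLC3A2 itself was at 271 ± 15.8 against 299 ± 41 CPM, and SLC7A5, another light chain of SLC3A2 and a main carrier of leucine, at 446 ± 71.3 against 419 ± 23.1 CPM (high against low, SD, n = 3 each). Both had overlapping groups, with limma log2 differences of 0.13 and -0.08. SLC7A4, which resembles the cationic carriers but has no established transport activity, was at 1329.6 ± 177 against 1419.9 ± 344 CPM. SLC7A7 was also close to even, at 22.9 ± 2.13 against 22.8 ± 3.18 CPM. SLC7A1, the cationic carrier for arginine and lysine, depended on low library 2: it was at 5.55, 5.24 and 2.22 CPM in the 3 high libraries, against 13.9, 1.65 and 11.4 CPM in the 3 low ones. Low libraries 1 and 3 were above and low library 2 below every high library. Its limma log2 difference was 0.63 (adjusted p = 0.826) and 1.41 without low library 2 (adjusted p = 0.0352).

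Among the remaining amino acid carriers, SLC43A1, a sodium-independent carrier of branched-chain amino acids, was lower in each low library, at 79.9, 90.5 and 69.8 against 103, 107 and 109 CPM. Its limma log2 difference was -0.41 (SE 0.14, adjusted p = 0.307), and its relative SLC43A2 had a difference of -0.18 with overlapping groups. SLC38A7, a lysosomal glutamine carrier, was also lower in every low library, at a log2 difference of -0.41. SLC17A7, which loads vesicles with glutamate, and SLC15A4, a lysosomal histidine and peptide carrier, were higher in every low library, at log2 differences of 0.36 and 0.10. The sodium-coupled carrier SLC38A2, which cells use in amino acid shortage and osmotic stress, was at 91.4, 84.1 and 71.9 CPM under high cryosurvival and 120.1, 59 and 98.1 CPM under low. Low library 2 was again the lowest, and low libraries 1 and 3 the highest. The log2 difference of SLC38A2 was 0.11, or 0.40 without low library 2. The glycine transporter SLC6A9, an osmolyte carrier of early embryos, was at a mean of 10.1 ± 1.36 CPM with high and 9.53 ± 2.27 CPM with low cryosurvival. Without low library 2, 8 of the 31 amino acid carriers were called by limma, 6 higher and 2 lower in low, and over all genes 13.6% were called in that fit. They included SLC1A3, SLC1A5, SLC7A8, SLC43A1, SLC7A1, SLC17A7 and SLC36A1, the last pair singled out after their values were seen.

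**Figure D2:**
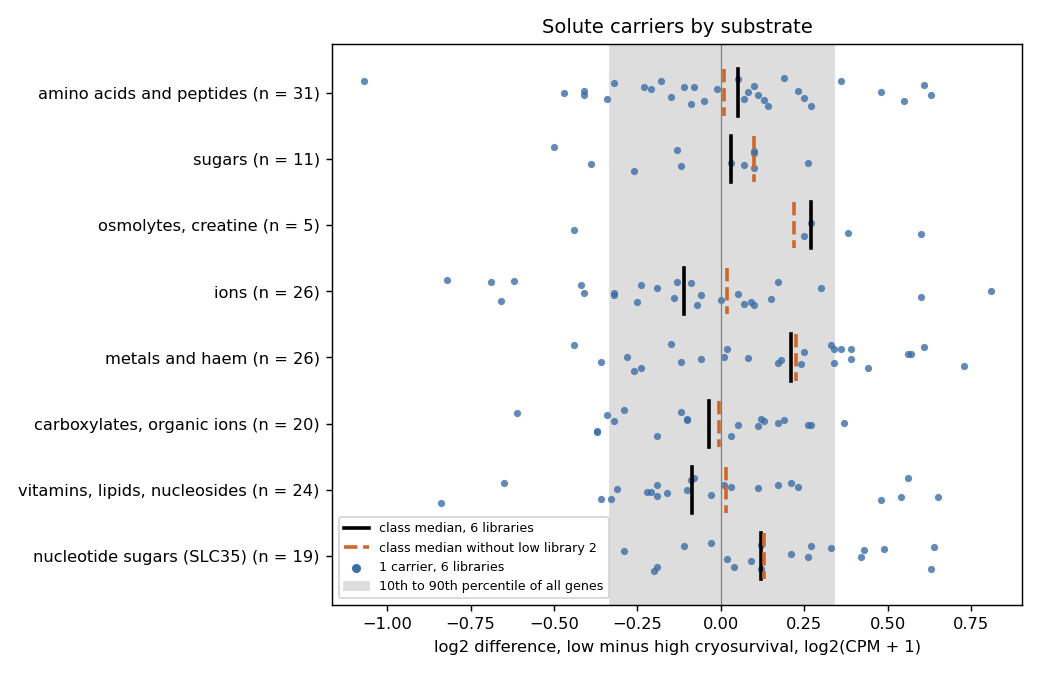
Log2 difference of each solute carrier, low minus high cryosurvival on log2(CPM + 1) (x axis), by substrate class (rows, with the number of carriers). Points are single genes, black bars the class medians over 6 libraries, dashed bars the medians without low library 2, and the grey band holds the 10th to 90th percentile of all genes. The medians of metals (0.21) and osmolytes (0.27) lie farthest to the right and that of ions (-0.11) farthest to the left with all 6 libraries.

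The 11 sugar carriers had 6 members higher and 5 lower in low cryosurvival, with a median log2 difference of 0.03, and with each library left out in turn it ranged from -0.09 to 0.13. The glucose carriers with the most reads were close in the groups. SLC2A3, a high-affinity glucose carrier, was at 1281, 1501 and 1269 CPM in the high and 1762, 1179.5 and 1432 CPM in the low libraries. SLC2A1, the basal glucose carrier of most cells, was at 586, 575 and 527 CPM with high and at 514, 492 and 529.8 CPM with low cryosurvival. The lowest high library of SLC2A1 lay just under the highest low one, so its groups overlapped by a single library, at a limma log2 difference of -0.13 (adjusted p = 0.762). The fructose carrier SLC2A5 was lower in each low library, at 848, 599 and 863 against 864, 933 and 943 CPM. The gap between its groups was small except for low library 2, with a log2 difference of -0.26 and -0.09 without that library.

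The 2 other sugar carriers with separated groups were lower in low cryosurvival as well. SLC37A4, which carries glucose 6-phosphate into the endoplasmic reticulum, was at 10.3, 8.7 and 11 CPM in the 3 high libraries, against 7.14, 6.08 and 7.07 CPM in the 3 low ones. Its limma log2 difference was -0.50 (SE 0.14, adjusted p = 0.235). SLC5A2, a sodium-glucose cotransporter best known from the kidney, was at 17.3, 18.5 and 18.5 CPM under high cryosurvival and 12.6, 12.9 and 15.3 CPM under low (log2 difference -0.39, limma adjusted p = 0.297). All 3 separated sugar carriers were thus lower in low cryosurvival, and 10.6% of all genes had their 3 low libraries below the 3 high. SLC5A1, a related cotransporter of the gut, had only 0.888 ± 0.237 CPM in high and 0.773 ± 0.475 CPM in low, which rests on as few as 3 reads in a library. Without low library 2 limma called 0 of the 11 sugar carriers, in a fit that called 13.6% of all genes.

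Organic osmolyte and creatine carriers had 5 members, 4 higher and 1 lower in low cryosurvival, with a median log2 difference of 0.27. SLC6A8, the creatine transporter, was the one with many reads, at 344, 284 and 326 CPM in the high and 339, 415 and 400.2 CPM in the low libraries. Low library 1 lay inside the range of the high libraries and low libraries 2 and 3 above it, with a limma log2 difference of 0.27 (SE 0.14, adjusted p = 0.539). The proton-coupled inositol carrier SLC2A13 was at 0.84, 1.63 and 1.33 CPM with high and at 3.29, 2.33 and 1.73 CPM with low cryosurvival, higher in every low library. SLC5A11, a sodium-coupled inositol carrier, went the other way, at 32, 31.4 and 35.3 CPM in the 3 high libraries, against 22.3, 24.8 and 24.8 CPM in the 3 low ones (log2 difference -0.44, SE 0.12, limma adjusted p = 0.232). It was the 1 osmolyte carrier of 5 that limma called without low library 2 (adjusted p = 0.0349), where 13.6% of all genes were called. The stress-induced inositol carrier SLC5A3 and the taurine carrier SLC6A6 had means over the 6 libraries under 2 CPM, at 1.06, 0.996 and 0.555 against 2.9, 0.676 and 1.15 CPM and 0.504, 0.996 and 0.777 against 0.499, 1.43 and 1.47 CPM in high against low. The group values of SLC5A3 and SLC6A6 overlapped, and each rests on as few as 9 reads in a library. The class median was -0.09 in the 2 members of at least 5 CPM, SLC5A11 and SLC6A8, so its sign rests on the members with few reads. The betaine carrier SLC6A12 was not analysed here.

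Ion carriers leaned towards lower values in low cryosurvival with all 6 libraries, with 9 of 26 higher and 17 lower and a median log2 difference of -0.11. Without low library 2 there were 14 higher and 12 lower, with a median of 0.02, so this lean rested on that library. Low library 2 was the lowest of the 6 in 57.7% of the ion carriers, against 35.5% of all genes. The share was 41.7% over the 163 members, the ion carriers included. Among the other classes the sugar carriers alone were as high, at 63.6%. The rest went from 0.0% of the osmolyte to 45.2% of the amino acid carriers. Of the 26, 2 had separated groups, both lower in low. This was 7.69% of the class, below the 21.0% of all genes with separated groups. SLC9A5, a sodium-proton exchanger, was at 6.67, 5.66 and 8.71 CPM under high cryosurvival and 4.04, 3.15 and 4.97 CPM under low (log2 difference -0.66, SE 0.20, limma adjusted p = 0.263). SLC24A4, a potassium-dependent sodium-calcium exchanger, was at 2.24, 1.15 and 1.55 CPM in the high and 0.899, 0.15 and 0.471 CPM in the low libraries. The lowest SLC24A4 library, low library 2, held 2 reads, so no fold is given.

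Some ion carriers, among them carriers of salt and cell volume, depended on low library 2. SLC12A2, the sodium-potassium-chloride cotransporter that loads shrunken cells with salt, was at 8.29, 8.7 and 5.88 CPM with high and at 15.7, 6.38 and 16.5 CPM with low cryosurvival. Low libraries 1 and 3 were about level with each other and above every high library, and low library 2 lay among the high ones. The limma log2 difference of SLC12A2 was 0.60 (adjusted p = 0.598) and 1.0 without low library 2 (adjusted p = 0.0203). The potassium-chloride cotransporter SLC12A4, which lets swollen cells lose salt, was at 294, 318 and 292 against 385, 221 and 393 CPM, with low library 2 under every high library and the other low libraries above them. The sulfate carrier SLC26A2 had the same order, at 0.504, 1.26 and 0.555 CPM under high cryosurvival and 3.1, 0.526 and 3.51 CPM under low, except that low library 2 was within the high range and held 7 reads. SLC12A2, SLC12A4 and SLC26A2 were among the 4 ion carriers called without low library 2, all 4 higher in low, and SLC12A4 and SLC26A2 were singled out after their values were seen. The 4 were 15.4% of the class, near the 13.6% of all genes called in that fit, and 8.15% of all genes were called higher.

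Ion carriers with many reads were even or followed the same library. The sodium-phosphate cotransporter SLC34A2 was at 556, 756 and 449.8 CPM in the high and 743, 113 and 537 CPM in the low libraries, with low library 2 far below the other 5. Its limma log2 difference turned from -0.69 to 0.14 when that library was left out, and neither was called. The chloride-bicarbonate exchanger SLC4A2 was at 278 ± 43.3 against 298 ± 50.8 CPM, and the mitochondrial sodium-calcium exchanger SLC8B1 at 331 ± 28.1 against 323 ± 78.2 CPM (high against low, SD, n = 3 each). SLC12A9, a member of the chloride cotransporter family, was at 335 ± 16 against 351 ± 71.8 CPM, and the anion exchanger SLC26A6 at 22.6 ± 0.839 against 19.9 ± 3.13 CPM. Each of these 4 had overlapping groups.

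Metal carriers leaned to higher values in low cryosurvival both with and without low library 2. Of 26, 18 were higher and 8 lower, with a median log2 difference of 0.21, and without low library 2 there were 17 higher with a median of 0.23. With each library left out in turn the median ranged from 0.14 to 0.25. In 5 the low libraries were all above the high ones and in 1 all below, against 10.4% and 10.6% of all genes. By limma 0 of the 26 were called, and 5 were called without low library 2, each higher in low, in a fit that called 8.15% of all genes in that direction.

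SLC39A13, a zinc carrier of the Golgi and its vesicles, was at 4.65, 4.56 and 4.77 CPM with high and at 7.59, 10.1 and 7.7 CPM with low cryosurvival. The high libraries were nearly equal and every low library was above them, low library 2 most. Its ratio was 1.82, with a limma log2 difference of 0.73 (SE 0.14, adjusted p = 0.164) and 0.61 without low library 2 (adjusted p = 0.0164). SLC39A7, which releases zinc from the endoplasmic reticulum, was at 145, 153 and 145 CPM in the 3 high libraries, against 176, 198 and 184 CPM in the 3 low ones, a small and even difference of 0.33 on the log2 scale (limma adjusted p = 0.33). The plasma membrane zinc importer SLC39A1 and the haem carrier SLC48A1 were also higher in every low library, at log2 differences of 0.34 and 0.36. SLC30A3, a zinc carrier of vesicles, was at 3.08, 4.46 and 2.55 CPM under high cryosurvival and 4.89, 4.96 and 6.28 CPM under low. SLC40A1, ferroportin, the exporter of iron, was the metal carrier that was lower in every low library, at 21.8, 24.1 and 25.3 CPM in the high and 19.8, 15.5 and 16.4 CPM in the low libraries (log2 difference -0.44, SE 0.14, limma adjusted p = 0.282).

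Other metal carriers depended on low library 2 or were even. The Golgi zinc carrier SLC30A7 and the zinc importers SLC39A9 and SLC39A10 were at 24.8, 15.9 and 23.6, at 46.7, 23.4 and 43.4 and at 18.2, 8.94 and 15.4 CPM in low libraries 1, 2 and 3, so library 2 was the lowest low library each time. Without it their log2 differences were 0.63, 0.70 and 0.89, and limma called them, as it did SLC39A13 and SLC48A1. Of these 5, all but SLC39A13 were singled out after their values were seen. The plasma membrane zinc exporter SLC30A1 was at 37.8, 44.7 and 31.4 CPM with high and at 69.1, 34.3 and 51.2 CPM with low cryosurvival, in the same order of libraries but not called. SLC39A4, a zinc importer, was at 844 ± 26.6 against 1009 ± 199.7 CPM, and low library 2 was the highest, at 1237 CPM. Leaving it out moved the log2 difference from 0.24 to 0.09. The copper importer SLC31A1 was at 444 ± 43.1 against 501 ± 48.8 CPM. The iron and manganese importer SLC11A2, the zinc and iron importer SLC39A14 and the vesicular zinc carrier SLC30A2 had log2 differences of -0.24, -0.28 and -0.26, with overlapping groups.

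Carboxylate, organic ion and amine carriers were even, with 10 of 20 higher and 10 lower in low cryosurvival and a median log2 difference of -0.03. These counts include 1 member assigned to the class after the table was seen. The lactate and pyruvate carrier SLC16A1 was nearly level, at 506, 509 and 460.0 CPM in the 3 high libraries, against 518, 517 and 472 CPM in the 3 low ones. Its limma log2 difference was 0.03 (SE 0.12, adjusted p = 0.963). The lactate exporter SLC16A3, known as a hypoxia-induced gene, was at 2.46, 2.88 and 3.05 CPM under high cryosurvival and 2.25, 2.55 and 1.57 CPM under low, with overlapping groups. SLC16A7, another pyruvate carrier, was lower in each low library, at a log2 difference of -0.32. SLC6A4, the serotonin transporter, was at 4.09, 3.77 and 3.99 CPM in the high and 2.35, 1.95 and 2.46 CPM in the low libraries, with each group tight and a high over low ratio of 1.75. Its limma log2 difference was -0.61 (SE 0.12, adjusted p = 0.164), and -0.54 without low library 2 (adjusted p = 0.0203). The carnitine carrier SLC22A5 was lower in every low library and SLC10A3 and SLC22A23 were higher, at log2 differences of -0.37, 0.27 and 0.37. The bile acid carrier SLC10A1 was at 136, 155 and 139 CPM with high and at 147, 74.5 and 122 CPM with low cryosurvival, where low library 2 was the lowest (log2 difference -0.37, and -0.09 without it). SLC16A13 was even at 43.3 ± 4.77 against 40.4 ± 5.68 CPM. Without low library 2 limma called SLC6A4 and, singled out after its value was seen, SLC16A6, which was higher in low at a log2 difference of 0.61. These 2 were 10.0% of the class, against 13.6% of all genes.

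Carriers of vitamins, choline, fatty acids, nucleosides and acetyl-CoA had 10 of 24 members higher and 14 lower, with a median log2 difference of -0.09, and 0.01 without low library 2. SLC33A1, which takes acetyl-CoA into the endoplasmic reticulum, was at 43.2, 48.4 and 39.5 CPM in the 3 high libraries, against 72.6, 63.2 and 70.8 CPM in the 3 low ones. The groups were well apart, at a ratio of 1.58 and a limma log2 difference of 0.65 (SE 0.13, adjusted p = 0.164). SLC29A1, an equilibrative nucleoside carrier, was at 131, 132 and 113 CPM under high cryosurvival and 183, 223 and 147 CPM under low, with low library 2 the highest. Its relatives SLC29A3 and SLC29A4 were lower in every low library, at log2 differences of -0.65 and -0.33, and SLC29A2 was at 165 ± 3.19 against 149 ± 22.6 CPM with overlapping groups. Most of the SLC29A3 difference came from low library 2, without which it was -0.17.

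The folate carrier SLC19A1 was at 0.84, 1.47 and 1.17 CPM in the high and 1.85, 2.1 and 1.99 CPM in the low libraries, higher in each low library and based on as few as 15 reads. SLC46A2 was at 1.62, 2.04 and 1.77 CPM with high and at 1.15, 0.225 and 0.471 CPM with low cryosurvival, lower in each low library, with 3 reads in low library 2. The fatty acid carrier SLC27A4 was higher in each low library, at a log2 difference of 0.17. The choline-like carrier SLC44A2 was at 502 ± 35.8 against 544 ± 26.2 CPM, with overlapping groups. Without low library 2 limma called 5 of the 24, or 20.8%, where it called 13.6% of all genes. Besides SLC33A1 and SLC46A2 these were the vitamin C carrier SLC23A2 (log2 difference 1.26, adjusted p = 0.0113), the thiamine carrier SLC19A2 and the riboflavin carrier SLC52A2, each singled out after its value was seen. SLC23A2 was at 2.46, 1.73 and 1.89 CPM in the 3 high libraries, against 6.24, 0.676 and 6.18 CPM in the 3 low ones, so that low library 2 had the lowest value and the other low libraries the highest. SLC52A2 was the 1 of these that was lower in low libraries 1 and 3, at 94.5, 139.9 and 102 CPM in low libraries 1, 2 and 3 against 126, 124 and 129 CPM in high.

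The class named for nucleotide sugars held 19 of the 20 SLC35 members, and 14 were higher and 5 lower in low cryosurvival. Some of the 19 have no established nucleotide sugar substrate, so these counts describe a family more than a substrate. The counts were equal without low library 2, but 6 of the 19 changed sign, 3 in each direction. Their median log2 difference was 0.12, and leaving out single libraries gave 0.11 to 0.18. In 5 the low libraries were all above the high ones, and in 0 all below, where 10.4% and 10.6% of all genes were. SLC35C1, which brings GDP-fucose into the Golgi, was at 92.2, 121 and 107 CPM under high cryosurvival and 180.4, 156 and 162 CPM under low. Its ratio was 1.55, with a limma log2 difference of 0.64 (SE 0.15, adjusted p = 0.182). SLC35G2 and SLC35E3, members without an established substrate, were at 2.8, 2.46 and 3.0 against 4.54, 6.23 and 3.87 CPM and 6.0, 6.13 and 8.38 against 9.14, 9.69 and 11 CPM in high against low. SLC35F5 and SLC35A4 were the other separated members, at log2 differences of 0.27 and 0.12. SLC35B1, which exchanges ATP and ADP across the endoplasmic reticulum, and SLC35F6 overlapped, at 158 ± 10.3 against 170.1 ± 25.9 and 133 ± 17 against 157 ± 44.5 CPM. SLC35C1 and SLC35G2 were called without low library 2 (limma adjusted p = 0.0297 and 0.0385), 10.5% of the class against 13.6% of all genes.

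Grouping by membrane instead of substrate was decided on once the values had been seen. It put the 19 SLC35 members of the nucleotide sugar class together with SLC30A5, SLC30A6, SLC30A7, SLC39A7, SLC39A9, SLC39A11, SLC39A13, SLC33A1, SLC37A4 and SLC10A7, most of them known from the endoplasmic reticulum or Golgi. SLC35F3, classed as a thiamine carrier and at a log2 difference of -0.21, was not in this group. Of these 29 carriers 22 were higher and 7 lower in low cryosurvival, with a median log2 difference of 0.21, and 8 had all low libraries above all high ones against 1 below, where 10.4% and 10.6% of all genes did. The other 134 members had 65 higher and 69 lower, a median of -0.01, and 13 above against 15 below. No test was made of this difference.

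**Figure D3:**
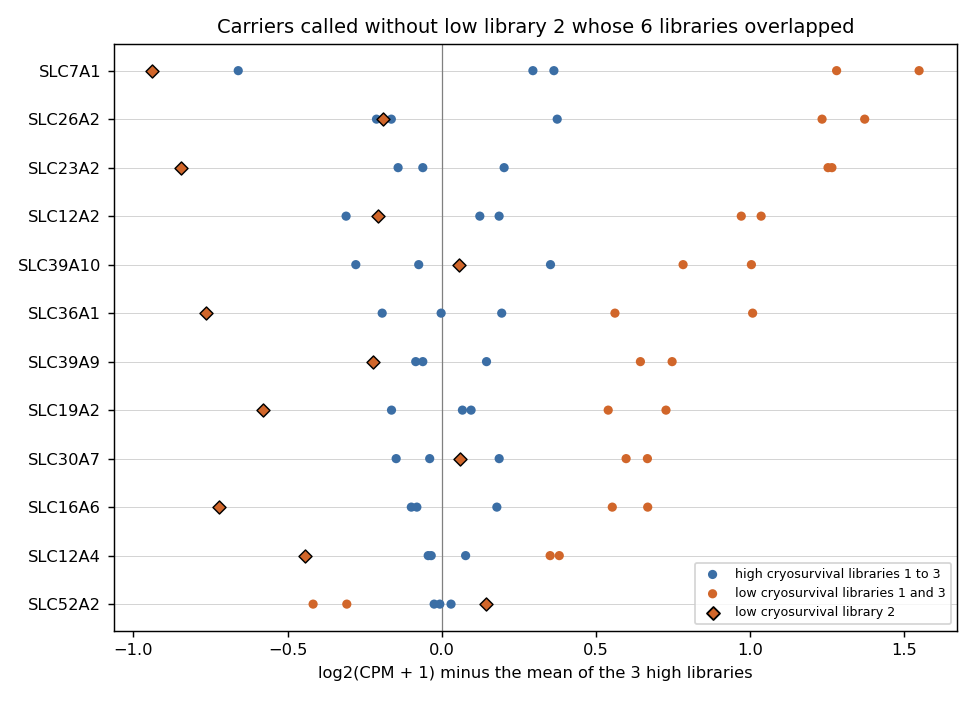
Level of 12 of the 14 solute carriers that limma called without low library 2 and whose 6 libraries overlapped, as log2(CPM + 1) minus the mean of the 3 high cryosurvival libraries (x axis, log2 units), with a row per gene. Points are single libraries, blue for high and orange for low, with a diamond for low library 2. In 11 rows low libraries 1 and 3 lie to the right of every high library and the diamond does not follow them, and in 7 of these it is the lowest of the 6.

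Low library 2 decided how many carriers passed the test. Without it limma called 27 of the 163 members, or 16.6%, beside 13.6% of all genes. Of them 21 were higher in low, where 8.15% of all genes were called in that direction, and 6 lower, where 5.48% were. In 13 of the 27 the 6 libraries were separated with low library 2 included, and in 14 they were not. Low libraries 1 and 3 both lay above the 3 high libraries in 55 members, or 33.7%, against 27.6% of all genes. Low library 2 was above the high libraries too in 21 of these 55, within their range in 13 and below them in 21. Low libraries 1 and 3 were both below in 26 members, and low library 2 was below as well in 16, within in 5 and above in 5. It lay on the far side of the high libraries in 38.2% and 19.2% of such members, against 47.3% and 48.5% of such genes in the whole table. It was the lowest of the 6 libraries in 41.7% and the highest in 20.2% of the carriers, and over all genes in 35.5% and 34.4%.

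**Figure D4:**
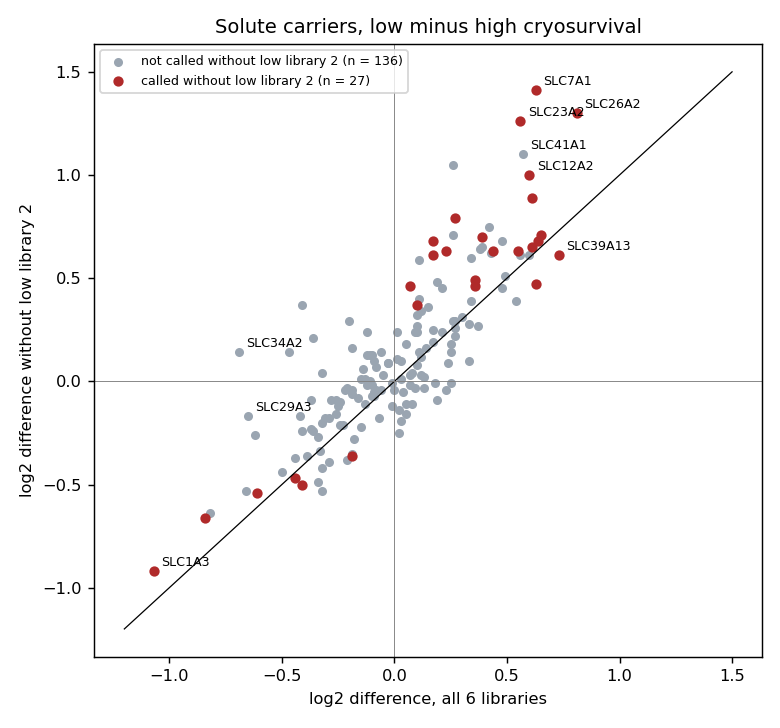
Log2 difference, low minus high cryosurvival, of the 163 solute carriers with all 6 libraries (x axis) and without low library 2 (y axis), both on log2(CPM + 1). Points are single genes, red for the 27 called by limma without that library, and the diagonal marks equal values. SLC7A1, SLC26A2, SLC23A2 and SLC12A2 lie above the diagonal and SLC1A3 near it.

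The carriers varied less between the high libraries than between the low ones. The median SD of log2(CPM + 1) was 0.14 over the members in high and 0.29 in low cryosurvival, against 0.12 and 0.27 over all genes. Low libraries 1 and 3 differed by a median of 0.17, while low library 2 lay a median of 0.44 from their mean. The 163 carriers together took 1.49% to 1.68% of the values summed in the high and 1.35% to 1.76% in the low libraries.

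Genes that work with the carriers were described from lists written from general knowledge, with earlier results of these data known. The sodium pump and carrier partner list had 14 of 29 genes in the table, 9 higher and 5 lower in low, with a median log2 difference of 0.07. The scaffold SLC9A3R1, which anchors sodium-proton exchangers, was at 3521, 3898 and 3595 CPM in the high and 3116, 2016 and 2749.8 CPM in the low libraries. SLC9A3R1 was lower in every low library (log2 difference -0.50, limma adjusted p = 0.341). Of the osmotic response list 13 of 19 were in the table, 6 higher and 7 lower, with a median of -0.10. LRRC8C, which forms part of the anion channels that open when cells swell, was called there in the authors' deposited table, at 0.448, 0.367 and 0.388 CPM with high and at 3.65, 1.35 and 1.94 CPM with low cryosurvival. The LRRC8C values rest on as few as 7 reads in a library, and the limma adjusted p was 0.164. The water and glycerol channel AQP3 and the polyol enzyme AKR1B1, the members with the most reads, were at 294 ± 26.6 against 320.2 ± 35.2 and 300 ± 28.7 against 251 ± 52.1 CPM.

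The amino acid response list, which ATF4 drives in amino acid shortage and which is known to include several carriers, had 26 of 29 in the table, 16 higher and 10 lower, with a median log2 difference of 0.09. PPP1R15A was its 1 called gene in the authors' deposited table (adjusted p = 0.041), at 49.1, 45.3 and 53.2 CPM in the 3 high libraries, against 78.3, 87.5 and 77.5 CPM in the 3 low ones. ATF4 itself, at 787 ± 1.29 against 705 ± 39.1 CPM, was lower in every low library, and ASNS was at 319.8 ± 24.6 against 305 ± 13.2 CPM with overlapping groups. The pyruvate, lactate and glucose entry list had 14 of 16 in the table, 6 higher and 8 lower, with a median of -0.03, and MPC1 and GPI were at 918 ± 19.4 against 857 ± 238 and 544 ± 10 against 503 ± 36.2 CPM. The zinc, iron and copper handling list had 13 of 18, 8 higher and 5 lower, with a median of 0.19. Its ferritin genes FTH1 and FTL were at 2247 ± 209 against 2513 ± 479 and 1030.4 ± 80.6 against 1241 ± 522 CPM, with low library 2 the highest for both. By limma 0 genes of these 5 lists were called with all 6 libraries, and without low library 2 they had 3, 4, 7, 4 and 1 called members, in the order given. These were 21.4%, 30.8%, 26.9%, 28.6% and 7.69% of the measured genes of each list, where 13.6% of all genes were called. Since the lists were chosen with earlier results of these data known, these shares are no independent support.

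Markers of the blastocyst's cell types were set beside the carriers. Of 10 measured trophectoderm markers, of 14 listed, 2 were higher and 8 lower in low cryosurvival, and their summed level was 32228 to 35656 CPM in high and 27665 to 37968 CPM in low. Low libraries 1 and 3, at 30755 and 27665 CPM, were below every high library, and low library 2 was above every one. KRT8 and KRT18, with means of 18199.6 and 12191 CPM over the 6 libraries, made up most of this sum. GATA2, TFAP2A and TFAP2C were lower in every low library, at log2 differences of -0.41, -0.67 and -0.12, and PAG11 was higher, at 0.72. These 4 were 40.0% of the measured trophectoderm markers, against 21.0% of all genes with separated groups. The other measured trophectoderm markers overlapped, and limma called 0 of the 10 with all 6 libraries. For the inner cell mass 7 of 8 markers were measured, 4 higher and 3 lower, with sums of 1438 to 1543 CPM in high and 1379 to 1451 CPM in low. NANOG, a pluripotency factor of the inner cell mass, was at 47.3, 31.1 and 37.6 CPM in the high and 22.1, 12.2 and 14.3 CPM in the low libraries. It was lower in every low library, with a limma log2 difference of -1.23 (adjusted p = 0.164) and -1.06 without low library 2 (adjusted p = 0.0345). NANOG was called in the authors' deposited table (adjusted p = 0.002), as SLC1A3 was. The other measured inner cell mass markers had overlapping groups. POU5F1, the one with the most reads, was at 732 ± 39.9 against 745 ± 166 CPM. SOX2, LIN28A and KLF4 had log2 differences of 0.26, 0.38 and 0.29. DPPA3 was at -0.46 and DNMT3B at -0.54, or -0.03 without low library 2 for DNMT3B. For the hypoblast 7 of 8 were measured, 4 higher and 3 lower, with sums of 2296 to 2971 CPM in high and 1667 to 3072 CPM in low, where low library 2 had the lowest sum. Their part in the values of the carriers was not tested.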

How the data were processed

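RNA of 6 blastocyst libraries was sequenced after preparation with a kit that the labels name as NEBNext Ultra II, from RNA with an integrity number of at least 7.7. Per the submitters' processing notes, which give no roles, the tools included DESeq 1.12.1, HTSeq 0.5.4p2, TopHat2 2.0.8, SAMtools 0.1.18, Bowtie2 2.1.0 and Cufflinks 2.1.1. The build, whether counting used strand, and how genes were filtered were not given in the sources used here. Reads of overlapping genes therefore cannot be told apart. The deposited values per library name no other unit in their header. Up to 1000 CPM, 100% of them fell, to within 0.05 read, on multiples of a step that each library had of its own, so they were read as CPM of a scaled library size. The authors' deposited table also gives log2 ratios and p-values.

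Levels were compared as low minus high on log2(CPM + 1) with limma 3.58.1 in R 4.3.3, over all 9537 genes and 6 libraries without covariates, with Benjamini-Hochberg adjustment at 0.05. Fold changes on this scale understate those of low genes. An exact permutation test of 3 against 3 libraries cannot go below p = 0.1 and was not used. The computations were tested on simulated data. The members and lists were chosen with earlier results of these data known. Named carriers were those called, the 10 with the smallest p in each direction among those with separated libraries, the 3 with the highest mean CPM per class, and a list of well-known carriers, of which SLC7A11, SLC6A12 and SLC27A2 were not analysed here. Of the other lists, called genes and the 2 with the highest mean CPM were named. The values of some named genes are not reported here. Alternatives were other pseudocounts, filters, scalings, a variance trend, voom on recovered reads, a replicate term and each library left out.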

Additional observations from a re-analysis of the deposited data

How the results depend on the processing

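Limma called 0 solute carriers under each alternative except without low library 2, so the count ranged from 0 to 27 with single libraries left out, and the count at an unadjusted p below 0.05 from 16 to 64. Class medians with single libraries left out ranged from -0.08 to 0.04 for amino acids and from -0.22 to 0.01 for carboxylates, both lowest without low library 1. The osmolyte median was 0.39 with a pseudocount of 0.25, 0.42 with voom, and -0.09 with a filter of 5 CPM, which left 2 members. The sign of 0 of the 56 named carriers changed under TMM factors, quantile normalization, voom or a pseudocount of 0.25. The TMM fit gave the same 25 members at an unadjusted p below 0.05 as the main fit. The deposited values appear to carry such factors already, so TMM was no separate check of the scaling. Same-numbered libraries of the groups had correlations of their deviations of 0.12, -0.26 and -0.31, so the numbers were not taken as pairs, and with a replicate block 0 carriers were called and 19 had an unadjusted p below 0.05. Voom was chosen after seeing the data, and the planned edgeR and DESeq2 fits were not run. Values resting on few reads, in the 25 carriers under 2 CPM, are limited by depth.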
